A study of Homo sapiens with 12 samples.

Results

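The comparison described here is the response of HCT116 cells to 12 h of ICG-001, set against 12 h of the solvent DMSO. HCT116 is a human colorectal carcinoma line that carries an activating mutation of the β-catenin gene CTNNB1. One group received ICG-001 at 10 µM and the other DMSO at 0.05%, and RNA of both was read on Illumina BeadChips. Each group is a single column of signals, the mean of 2 arrays, so the values below are sizes with no replicate check, no error and no test. A gene was kept when its signal was above background in at least 1 of the columns, which left 17230 of the 34687 rows in the table.

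ICG-001 is a small molecule that binds the histone acetyltransferase CBP, encoded by CREBBP, and not its close relative p300, encoded by EP300. CBP and p300 are recruited by β-catenin and the DNA-binding factor TCF7L2 to genes that respond to WNT ligands, where they acetylate histones. WNT signalling is known in the colon for maintaining dividing crypt cells, and AXIN2 is among its best known direct targets. Some further pathways recur below. In the integrated stress response, phosphorylation of the translation factor eIF2α favours translation of ATF4, which drives genes for amino acid synthesis, amino acid uptake and tRNA charging. SREBP factors, held back by INSIG proteins when sterols are plentiful, drive cholesterol and fatty acid synthesis.

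Facts that bear on every value are as follows. The background limit was a signal of 142 in the DMSO column and 144 in the ICG-001 column. Of the genes kept, 14278 were above the limit in both columns, 1232 with ICG-001 alone and 1720 with DMSO alone. Just outside the limit lay BTK, TCF23 and SNORA74A, and just inside it ESRRB and CCR10, all with log2 ratios between -0.14 and -0.03. Log2 ratios of rows at or under both limits had an SD of 0.07, and those of the genes kept had a median of -0.00 and an SD of 0.34. For 280 genes read by a pair of rows above the limit, the rows' log2 ratios differed by a median of 0.17, and in 5% of them by more than 0.71. All 9 epithelial markers listed for this line were above the limit, with EPCAM at 7630 with DMSO and 7587 with ICG-001. Of 7 colon markers CDX2 and GPA33 were above it, as were 1 of 7 fibroblast, 3 of 7 leukocyte and 0 of 5 endothelial markers. The brightest marker of the other cell types, CD68, read 291 and 369. Background was left in the signals by the authors, so ratios of dim genes understate the difference.

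With ICG-001 821 genes were at least 1.5-fold higher than with DMSO, 4.76% of those kept, and 708 were at least 1.5-fold lower, 4.11%. After normexp background correction, which spreads dim ratios, the counts were 1778 and 1885. On the deposited signals, larger differences were mostly upward. At 2-fold the counts were 173 higher and 87 lower, at 3-fold 40 and 5, and at 4-fold 14 and 0. The counts followed signal, with background left in. When genes were ranked by mean signal and split into 4 equal bins, none of the dimmest bin reached 1.5-fold. Of the brightest bin, with mean signals above 618, 433 were higher and 379 lower. The dimmest bin ended at a mean signal of 156, and background peaked at 127 with DMSO and 128 with ICG-001. A gene in that bin could hardly reach 1.5-fold, so the empty bin does not show that dim genes were unchanged.

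**Figure D1:**
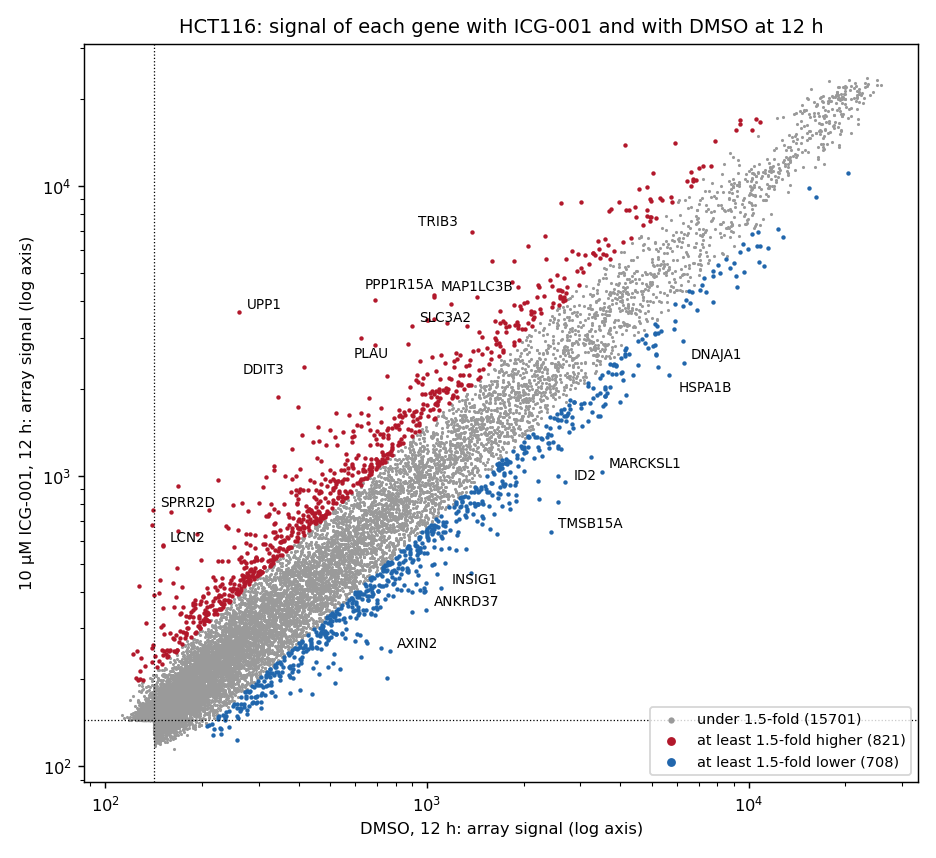
Signal of each of the 17230 genes with DMSO (horizontal, log axis) and with 10 µM ICG-001 (vertical, log axis) after 12 h in HCT116 cells; each point is 1 gene and dotted lines mark the background limits. UPP1 stands farthest above the diagonal, at 261 with DMSO and 3665 with ICG-001, and the 821 genes at least 1.5-fold higher reach larger ratios than the 708 at least 1.5-fold lower.

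UPP1, the uridine phosphorylase of pyrimidine salvage, showed the largest difference. Its signal was 261 with DMSO and 3665 with ICG-001, 14.0-fold higher. Next came PPP1R15A, the phosphatase subunit GADD34 that reverses eIF2α phosphorylation, at 690 and 4059, or 5.88-fold. DDIT3, which encodes the stress transcription factor CHOP, read 414 and 2373, or 5.73-fold. The pseudokinase gene TRIB3, a target of ATF4 and CHOP, read 1381 and 6949, or 5.03-fold. Among named genes with both columns above the limit, leaving out small RNAs and rows with LOC names, these were the 4 largest differences, and the last 3 belong to the ATF4 list.

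Further named genes near the top had varied functions. The urokinase gene PLAU, whose product activates plasminogen, read 624 with DMSO and 2994 with ICG-001, 4.80-fold higher. KRT80, a keratin, read 160 and 752. LCN2, the iron-carrying lipocalin, was near background with DMSO at 151 and read 578 with ICG-001. SPRR2D, a small proline-rich protein of the cornified envelope, was under the limit with DMSO and read 762 with ICG-001, at least 5.36-fold higher. MAP1LC3B, which encodes the autophagosome protein LC3B, read 1052 and 4213, 4.01-fold higher. NIBAN1, a stress-responsive gene, was read by a pair of rows that gave log2 ratios of 2.11 and 1.51. The remaining genes among the 15 largest were PABPC1L, VGF, IL20RB, ARRDC4 and SLC3A2, with log2 ratios of 1.88 to 2.04.

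At the other end, the thymosin gene TMSB15A, whose product binds actin, read 2428 with DMSO and 642 with ICG-001, 3.78-fold lower. MARCKSL1, a substrate of protein kinase C, read 3497 and 1035, 3.38-fold lower. The LIM-domain gene CSRP2 read 2553 and 814. AXIN2 followed at 766 and 249, 3.08-fold lower. A row named TUBB4, an older symbol of several genes, read 751 and 202, a log2 ratio of -1.89 that only TMSB15A exceeded among the lower genes. The other genes among the 15 lowest were CRYZ, ANKRD37, ID2, INSIG1, NRGN, CMBL, CYP24A1, ARID5B, RGS2, DNAJA1 and HSPA1B, with log2 ratios of -1.57 to -1.35. Several of them recur below within lists of related genes, where the count of members past 1.5-fold is to be read against the 4.76% and 4.11% over all genes, and the list's median against -0.00.

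The regulators of the integrated stress response were higher as a group. Of 22 listed genes 20 were above the limit, all 20 had a positive ratio and 16 were at least 1.5-fold higher, with a median log2 ratio of 1.11. ATF4 itself, the central factor, read 4374 with DMSO and 5569 with ICG-001, a log2 ratio of 0.35. ATF3, a factor that ATF4 induces, read 273 and 590, 2.16-fold higher. GDF15, a secreted stress hormone, read 2607 and 8740, 3.35-fold higher. The smallest log2 ratio belonged to NUPR1, at 0.14, with signals of 151 and 167 close to background. EIF4EBP1, a brake on cap-dependent translation, and JDP2 were also under 1.5-fold, at 0.37 and 0.46.

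Enzymes of amino acid synthesis followed in part. Of 17 genes above the limit 7 were at least 1.5-fold higher and none lower, with a median of 0.42. GOT1, the cytosolic aspartate aminotransferase, read 3005 with DMSO and 8777 with ICG-001, 2.92-fold higher. PSAT1 of serine synthesis read 1243 and 2541, and MTHFD2, the mitochondrial folate enzyme, read 2410 and 4755. GPT2, which makes alanine, read 852 and 1661, 1.95-fold higher. The asparagine synthetase gene ASNS had a log2 ratio of 0.75. GOT2, the mitochondrial counterpart of GOT1, read 3119 and 2204, a log2 ratio of -0.50, and SHMT1 read 420 and 291. The ratios of the cytosolic and mitochondrial aspartate aminotransferases thus had opposite signs.

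Amino acid transporters included the subunits of the large neutral amino acid exchanger. Of 14 above the limit 5 were at least 1.5-fold higher and none lower, with a median of 0.51. SLC3A2, the heavy chain, read 898 with DMSO and 3296 with ICG-001, 3.67-fold higher. SLC7A5, its light chain LAT1, read 4137 and 13803, 3.34-fold higher. SLC7A1, which carries arginine and lysine, read 1331 and 3297, and SLC38A1, which carries glutamine, read 589 and 1428. SLC7A6, SLC36A1 and SLC1A4 lay within 0.09 of 0.

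The enzymes that charge tRNAs split by compartment. Of 19 cytosolic synthetases above the limit 8 were at least 1.5-fold higher and none lower, with a median of 0.55. The tryptophan enzyme WARS1 read 953 with DMSO and 2487 with ICG-001, 2.61-fold higher. The alanine enzyme AARS1 read 5397 and 8947, and the leucine enzyme LARS1 read 1356 and 2234. The glutamine enzyme, in a row named QARS, read 4830 and 3430, a log2 ratio of -0.49. Of 17 mitochondrial synthetases, encoded by separate genes, none reached 1.5-fold in either direction and the median was 0.03.

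Promoters of the genes in the stress regulator, amino acid and cytosolic synthetase lists were searched for the amino acid response element. The windows run from 250 bases before to 50 bases after the annotated start, from RefSeq on GRCh38.p14, and the letters searched on both strands were TGATGNAA. A match was present in 2 of the 15 stress regulators with a promoter in the set (13.3%), 3 of 11 synthesis genes (27.3%), 3 of 13 transporters (23.1%) and 6 of 15 cytosolic synthetases (40.0%). Among all 27305 promoters 1003 held it (3.67%). The matches are descriptions of letters and not evidence of binding. The 250 bases before the start of 4 genes that hold a match are shown, 1 from the regulators, 1 from the synthetases and 2 from amino acid synthesis, 5′ to 3′ on the gene's strand with the match in capitals. ASNS lies at chr7:97872409-97872658 on the minus strand, ATF3 at chr1:212565157-212565406 on the plus strand, GOT1 at chr10:99430625-99430874 on the minus strand and AARS1 at chr16:70289507-70289756 on the minus strand.
ASNS: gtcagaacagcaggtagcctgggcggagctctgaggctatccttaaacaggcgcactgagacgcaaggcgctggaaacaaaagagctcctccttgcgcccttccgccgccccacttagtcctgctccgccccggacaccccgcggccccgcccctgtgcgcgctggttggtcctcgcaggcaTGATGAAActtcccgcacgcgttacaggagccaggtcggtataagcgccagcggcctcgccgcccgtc
ATF3: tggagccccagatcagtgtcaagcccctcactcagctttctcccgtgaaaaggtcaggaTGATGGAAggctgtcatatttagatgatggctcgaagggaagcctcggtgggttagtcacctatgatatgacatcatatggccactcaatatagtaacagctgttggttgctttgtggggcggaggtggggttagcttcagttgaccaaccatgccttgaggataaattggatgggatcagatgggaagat
GOT1: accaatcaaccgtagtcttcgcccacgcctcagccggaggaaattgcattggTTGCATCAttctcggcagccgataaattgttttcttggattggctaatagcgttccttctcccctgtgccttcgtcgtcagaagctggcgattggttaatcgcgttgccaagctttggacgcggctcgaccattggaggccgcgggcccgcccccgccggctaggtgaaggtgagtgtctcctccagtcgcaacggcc
AARS1: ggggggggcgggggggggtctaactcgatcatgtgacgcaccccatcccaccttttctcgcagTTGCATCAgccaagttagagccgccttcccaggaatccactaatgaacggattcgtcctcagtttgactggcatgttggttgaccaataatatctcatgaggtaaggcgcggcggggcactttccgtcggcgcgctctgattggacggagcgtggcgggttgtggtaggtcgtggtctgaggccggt

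Counted from the start, where negative positions lie before it, the match began at -68 in ASNS, -191 in ATF3, -198 in GOT1 and -187 in AARS1. In GOT1 and AARS1 it lay on the opposite strand, so that the capitals show the reverse complement. The log2 ratios of these genes were 0.75, 1.11, 1.55 and 0.73 in the same order. Among the cytosolic synthetases CARS1, IARS1, NARS1 and TARS1 also held a match. Their log2 ratios were 0.57, 0.45, 0.53 and 0.37, each under 1.5-fold, while MARS1, also with a match, was at 0.88.

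**Figure D2:**
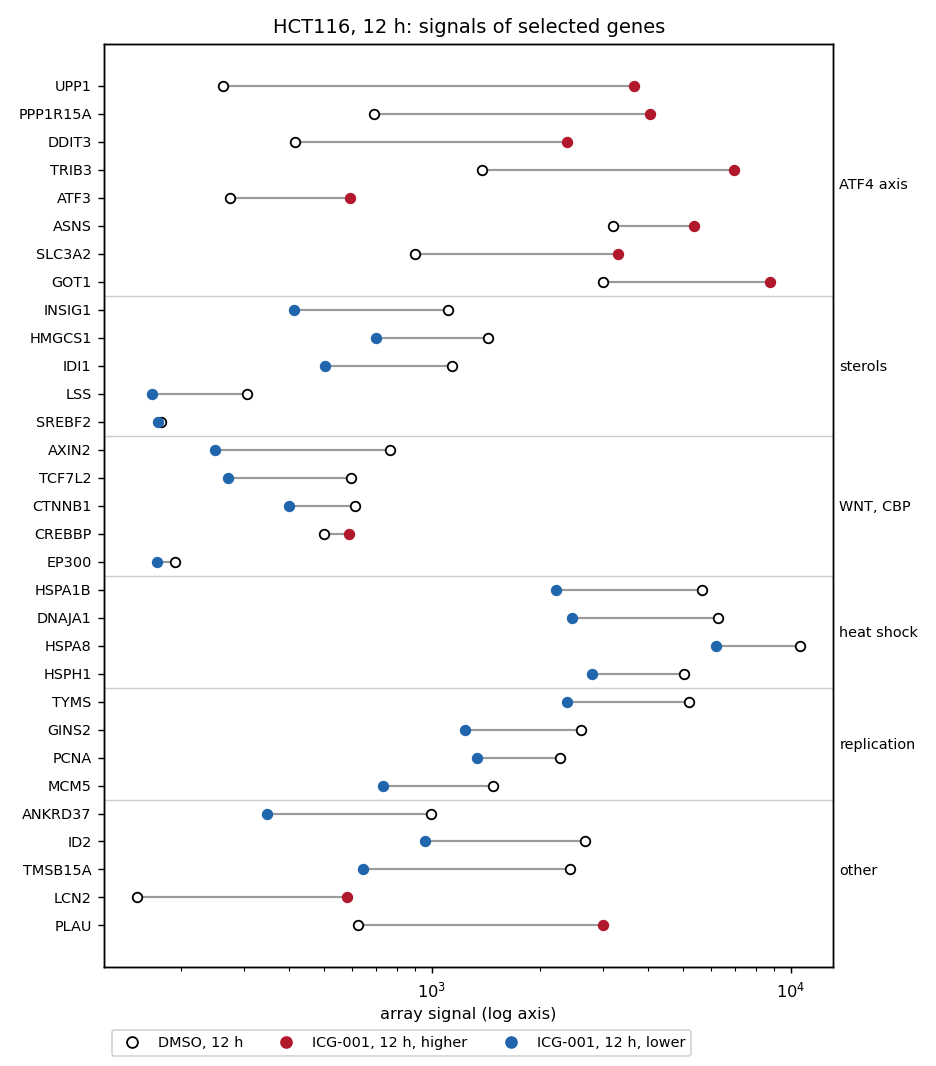
Array signal (log axis) of selected genes in HCT116 after 12 h, with DMSO (open circles) and with 10 µM ICG-001 (filled circles, red where higher and blue where lower); each circle is a mean of 2 arrays. The genes were chosen after their values were seen. Genes of the ATF4 axis lie to the right of their DMSO values, and sterol, heat shock and replication genes to the left.

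Cholesterol synthesis showed the largest downward shift among the metabolic lists. Of the 11 early enzymes, starting from acetyl-CoA, 9 were at least 1.5-fold lower and none higher, with a median log2 ratio of -0.83. ACAT2, which joins acetyl groups, read 978 with DMSO and 411 with ICG-001, 2.38-fold lower. HMGCS1, which makes HMG-CoA, read 1431 and 699, 2.05-fold lower. The isomerase IDI1 read 1139 and 503, and the squalene synthase FDFT1 read 3997 and 1802. PMVK, the phosphomevalonate kinase, was the exception at 293 and 334, a log2 ratio of 0.19.

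The 9 later enzymes, ending at cholesterol, were less uniform. Of these 4 were at least 1.5-fold lower and none higher, with a median of -0.48. DHCR7, which performs the last step, read 927 with DMSO and 426 with ICG-001, 2.18-fold lower. MSMO1 and EBP had log2 ratios of -0.86 and -0.73. HSD17B7, SC5D and the demethylase CYP51A1 had ratios above 0, at 0.58, 0.46 and 0.25. The early enzymes were thus lower in all but 1 gene and the later ones in 6 of 9.

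The regulators of the pathway did not move as one. INSIG1, the sterol-responsive retention protein and itself an SREBP target, read 1109 with DMSO and 413 with ICG-001, 2.69-fold lower. INSIG2 read 548 and 725, a log2 ratio of 0.40. SREBF1 and SREBF2, which encode the SREBP factors, had log2 ratios of 0.01 and -0.03. The escort protein gene SCAP was at 0.52, and the lysosomal cholesterol exporter NPC1 at 0.67. Over the 13 genes of sterol sensing and uptake the median was -0.19, with 1 gene at least 1.5-fold higher and 2 lower. Of 15 fatty acid synthesis genes 14 had a negative ratio and 2 were at least 1.5-fold lower, with a median of -0.27. These were ACLY, which makes cytosolic acetyl-CoA, at 2704 and 1611, and the desaturase SCD5 at 259 and 147.

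The letters TCACNCCAC, from the sterol regulatory element, were absent from the promoter windows of the 7 early, 8 late and 14 fatty acid genes with a window in the set. They were present in 1 of 11 sensing genes, SREBF2, and in 1.15% of all promoters. Absence here says only that these letters are not in this window.

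**Figure D3:**
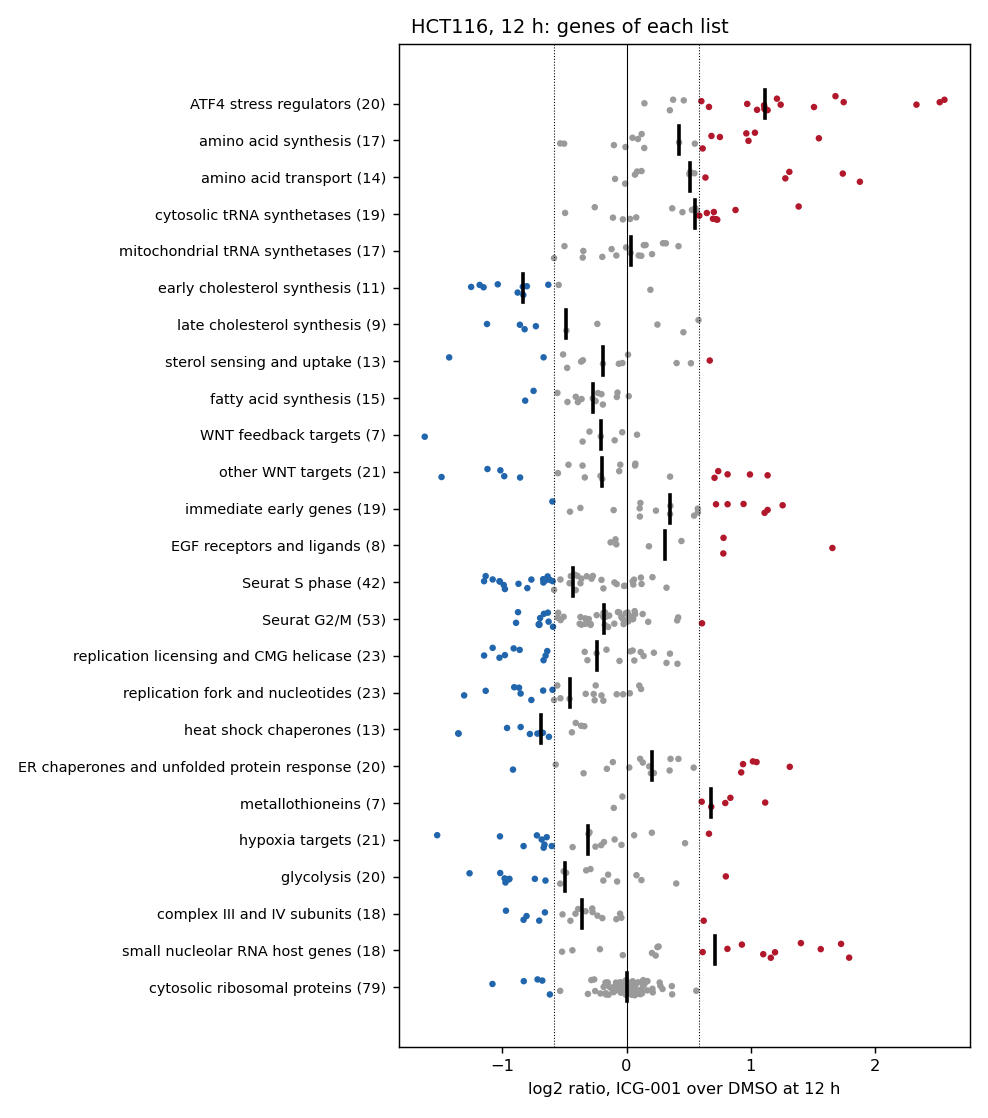
Log2 ratio of ICG-001 over DMSO at 12 h in HCT116 (horizontal) for the genes of each list above background, 1 point per gene, with the list's median as a black bar and dotted lines at 1.5-fold; red and blue points are at least 1.5-fold higher and lower, and the number of genes stands in parentheses. Lists of the ATF4 axis lie to the right of 0, cholesterol synthesis, replication, heat shock and glycolysis lists to the left, and cytosolic ribosomal proteins centre on 0.

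CBP, which ICG-001 binds, and the factors around it had unequal ratios. CREBBP read 502 with DMSO and 587 with ICG-001, a log2 ratio of 0.23. EP300 read 193 and 171, a ratio of -0.17. CTNNB1 read 611 and 400, 1.52-fold lower, and TCF7L2 read 596 and 271, 2.20-fold lower. Of 13 genes of the WNT transcription and destruction complexes above the limit, CTNNB1 and TCF7L2 were the 2 past 1.5-fold, and the median was 0.00. BCL9, a β-catenin co-activator, read 496 and 342, and its relative BCL9L 237 and 328.

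Among the negative-feedback targets of WNT signalling, AXIN2 stood alone. Only 7 of the 15 listed were above the limit, the median was -0.21, and AXIN2 was the 1 gene past 1.5-fold. The ubiquitin ligase genes RNF43 and ZNRF3 had log2 ratios of -0.30 and -0.35. The secreted antagonist DKK1 read 3690 with DMSO and 3602 with ICG-001. NKD2 was at 0.08.

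Other genes known as WNT targets went both ways, 5 at least 1.5-fold higher and 5 lower of 21, with a median of -0.20. ID2, an inhibitor of basic helix-loop-helix factors, read 2680 with DMSO and 956 with ICG-001, 2.80-fold lower. BMP4 read 1713 and 790, SOX4 3518 and 1742, and S100A4 10780 and 5455. In contrast the cyclin gene CCND1 read 4164 and 8282, 1.99-fold higher. FOSL1 read 392 and 860 and JUN 467 and 820. ID3, a relative of ID2, read 2548 and 1001, and ID1 2908 and 2118. The ID genes were listed together after their values had been seen. The letters CTTTGAT, bound by TCF factors, were in 0 of 3 feedback target windows in the set and in 2.64% of all promoters.

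Immediate early genes, which growth factor and stress signals switch on within minutes, were higher in 15 of 19 cases by any size. At least 1.5-fold differences were 6 upward and 1 downward, with a median of 0.35. IER3, a survival gene, read 5901 with DMSO and 14082 with ICG-001, 2.39-fold higher. KLF6 read 665 and 1277. JUNB, the 1 lower gene, read 338 and 223. Among 13 genes of ERK feedback only DUSP5, a nuclear ERK phosphatase, was past 1.5-fold, at 2338 and 6747 or 2.89-fold higher, and the median was 0.21. The immediate early list had a median of 0.35 for DMSO at 96 h over DMSO at 12 h as well, and the part of culture time in these values was not tested.

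Of the EGF receptor family and its ligands, 3 ligands of 8 genes above the limit were at least 1.5-fold higher and none lower. HBEGF read 316 with DMSO and 995 with ICG-001, 3.15-fold higher. TGFA read 440 and 755, and EREG 906 and 1555, each about 1.71 to 1.72-fold higher. The receptor genes EGFR, ERBB2 and ERBB3 had log2 ratios of 0.18, -0.09 and -0.08. The ligand genes BTC and EGF, both dim with DMSO, were at 0.44 and -0.13. The median over the 8 genes was 0.31, and it was 0.09 with no filter on dim genes and 0.61 after normexp.

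DNA replication genes were lower. Of 42 S phase genes above the limit 17 were at least 1.5-fold lower and none higher, with a median of -0.43. TYMS, the thymidylate synthase, read 5216 with DMSO and 2380 with ICG-001, 2.19-fold lower. MCM4 and MCM5, subunits of the replicative helicase, read 1231 and 557, and 1483 and 731. POLD1, the catalytic subunit of polymerase delta, read 537 and 217, 2.47-fold lower. In such RNA from whole cultures fewer cells in S phase and less RNA per cell cannot be told apart. Within the list of replication licensing and helicase genes 9 of 23 were at least 1.5-fold lower, with a median of -0.24, and within that of fork and nucleotide genes 8 of 23, with a median of -0.46. Members went unevenly: GINS2 read 2608 and 1237 while GINS3 read 552 and 733, a log2 ratio of 0.41. For the primase subunit PRIM2, rows disagreed, with log2 ratios of 0.10 and -1.17.

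The control column moved strongly for the same genes. Between DMSO at 12 h and DMSO at 96 h, a comparison that shares the 12 h column, 1.5% of genes were at least 1.5-fold higher and 1.5% lower at 96 h. Yet 31 of 42 S phase genes were at least 1.5-fold lower at 96 h, with a median of -0.75. The DMSO cultures at 12 h thus had the higher replication signals of the DMSO pair. With the mean of both DMSO columns as control, an alternative added after the data were seen, the S phase median was -0.10, that of licensing genes turned to 0.05 and that of fork genes was -0.07. The part of culture state in the lower replication signals was not tested.

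The letters TTTCCCGC, from the E2F element, were in 6 of 20 licensing and helicase promoters with a window (30.0%) and in 4 of 21 fork and nucleotide promoters (19.0%), against 1.66% of all promoters. GINS2 and TYMS, each more than 2-fold lower, are shown as the 250 bases before the start, with the match in capitals. GINS2 lies at chr16:85688955-85689204 on the minus strand and TYMS at chr18:657403-657652 on the plus strand.
GINS2: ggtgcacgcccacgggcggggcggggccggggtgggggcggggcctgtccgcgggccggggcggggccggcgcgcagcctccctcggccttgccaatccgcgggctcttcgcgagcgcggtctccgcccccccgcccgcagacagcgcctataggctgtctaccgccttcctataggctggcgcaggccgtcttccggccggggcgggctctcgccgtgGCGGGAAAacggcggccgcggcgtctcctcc
TYMS: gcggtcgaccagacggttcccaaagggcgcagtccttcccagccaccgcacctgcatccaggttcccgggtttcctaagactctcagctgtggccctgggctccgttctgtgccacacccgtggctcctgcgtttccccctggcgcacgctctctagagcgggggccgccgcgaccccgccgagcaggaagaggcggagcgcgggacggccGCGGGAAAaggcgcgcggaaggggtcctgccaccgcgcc

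In both genes the match lay on the opposite strand and began at -31 in GINS2 and -39 in TYMS. RFC3 and MCM7 also held a match, and their log2 ratios were 0.03 and 0.05, so the letters were present in genes that differed little too.

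Genes of G2 and mitosis were shifted less. Of 53 above the limit 10 were at least 1.5-fold lower and 1 higher, with a median of -0.18. The checkpoint kinase gene TTK read 1600 with DMSO and 864 with ICG-001, 1.85-fold lower, and TOP2A read 2549 and 1567. CDC20, the anaphase activator, read 4954 and 7545, the 1 gene past 1.5-fold upward. Of 7 cyclins above the limit CCND1 was the 1 gene past 1.5-fold, and the median was -0.36. With the mean of both DMSO columns as control the medians were -0.079 for G2 and mitosis and -0.073 for cyclins. Among CDK inhibitors CDKN1A, which encodes p21, read 1864 and 3890, 2.09-fold higher, and CDKN1C read 297 and 174, 1.70-fold lower.

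CDKN1A is also a p53 target. Of 23 p53 targets above the limit 3 were at least 1.5-fold higher and 2 lower, with a median of -0.11, or -0.25 after normexp. The higher genes were CDKN1A, GADD45A, a growth arrest gene, at 750 with DMSO and 2221 with ICG-001, and TNFRSF10B, the death receptor DR5, at 608 and 1505. CCNG1, a cyclin that p53 induces, was among the lower genes, at 1719 and 1067. Of the BCL2 family PMAIP1, which encodes NOXA, read 721 and 1719 and BIK 430 and 771, the 2 members past 1.5-fold of 14, and the family's median was 0.20. Among 15 death receptor and caspase genes TNFRSF10B, CFLAR and FADD were past 1.5-fold, all upward.

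Chaperones of the heat shock response were lower. All 13 above the limit had a negative ratio, 9 were at least 1.5-fold lower, and the median was -0.69. The HSP70 gene HSPA1B read 5665 with DMSO and 2223 with ICG-001, 2.55-fold lower. Its co-chaperone DNAJA1 read 6287 and 2462, also 2.55-fold lower. HSPE1, the mitochondrial chaperonin partner, read 7775 and 3997, HSPH1 5053 and 2802, and the constitutive HSC70 gene HSPA8 10606 and 6191. BAG3 and HSPB1 had the smallest differences, at -0.34 and -0.36. With the mean of both DMSO columns as control the median was -0.45.

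Chaperones and sensors of the endoplasmic reticulum did not share this direction. Of 20 above the limit 5 were at least 1.5-fold higher and 1 lower, with a median of 0.21. ATF6, a membrane-bound stress sensor, read 1036 with DMSO and 2571 with ICG-001, 2.48-fold higher. XBP1 read 2216 and 4574 and the co-chaperone DNAJB9 396 and 800. HERPUD1, of the degradation machinery, read 881 and 1686. The calcium-binding chaperone gene CALR read 1396 and 742, 1.88-fold lower, and PDIA4 had a log2 ratio of -0.57.

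Metallothioneins, which bind zinc and copper, were higher in 5 of 7 genes by at least 1.5-fold, with a median of 0.68. MT1G read 412 with DMSO and 893 with ICG-001, and MT2A 9433 and 16827. These genes are near-identical in sequence, so their rows may not be separate measurements. Of 19 targets of the oxidative stress factor NRF2 3 were higher and 3 lower by 1.5-fold, with a median of 0.02. FTH1, the ferritin heavy chain, read 1159 and 3364, 2.90-fold higher, and the transporter gene ABCC2 638 and 335. In autophagy and lysosome genes the median was 0.09, but ATG12 read 1435 and 4129, 2.88-fold higher, and the cargo receptor gene SQSTM1 4266 and 8233. That median was -0.14 with the mean of both DMSO columns as control.

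Genes that hypoxia induces were lower in part. Of 21 above the limit 9 were at least 1.5-fold lower and 1 higher, with a median of -0.31. ANKRD37, a target of hypoxia-inducible factor, read 996 with DMSO and 347 with ICG-001, 2.87-fold lower. BNIP3L read 851 and 421, the prolyl hydroxylase gene EGLN1 398 and 224, and the histone demethylase gene KDM3A 687 and 417. VEGFA, also a known ATF4 target, was the 1 gene past 1.5-fold upward, at 155 and 245. The letters ACGTG, which also lie within the E-box CACGTG, were in 9 of 17 of their promoter windows (52.9%) and in 21.6% of all promoters.

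Glycolytic enzymes shifted with them. Of 20 genes 8 were at least 1.5-fold lower and 1 higher, with a median of -0.50. The enolase gene ENO2 read 648 with DMSO and 270 with ICG-001, 2.40-fold lower. GPI read 3572 and 1767, PKM 1891 and 959, and PGAM1 3272 and 1667. The glucose transporter gene SLC2A1 was the 1 higher gene, at 3009 and 5234 or 1.74-fold, and 3 others, SLC2A3, PFKP and HK2, had positive ratios of 0.08 to 0.40. In DMSO cultures hypoxia and glycolysis genes were higher at 96 h than at 12 h, with medians of 0.61 and 0.35, which is opposite to their difference with ICG-001. With the mean of both DMSO columns as control the medians were -0.65 and -0.67. Averaging in the higher 96 h DMSO signals lowers these ratios by construction, and the part of culture time was not tested.

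Subunits of the respiratory chain were slightly lower too. The median was -0.36 for complex III and IV, with 17 of 18 genes below 0, -0.31 for ATP synthase and -0.24 for complex I. COX7B read 5172 with DMSO and 2642 with ICG-001, UQCRC2 1922 and 1083, and NDUFA2 4072 and 2145. Mitochondrial ribosomal proteins had a median of -0.18, with 5 of 75 at least 1.5-fold lower and 1 higher, and the proteasome -0.21, with 3 of 36 lower. Cytosolic ribosomal proteins centred on 0.00, with 5 of 79 at least 1.5-fold lower and none higher.

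Keratins of all kinds and small proline-rich proteins were listed after their values had been seen. Of 16 keratin genes above the limit 5 were at least 1.5-fold higher and none lower, with a median of 0.40. Some passed the limit with ICG-001 alone, and the median was 0.27 over those above it in both columns and 0.05 with no filter. KRT81 read 148 with DMSO and 440 with ICG-001, and KRT7 was under the limit with DMSO and read 389, at least 2.73-fold higher. The keratins usual in gut epithelium, KRT8 and KRT19, read 4653 and 4934, and 8719 and 9041. Small proline-rich genes above the limit numbered 5 of 10, with 2 at least 1.5-fold higher, none lower and a median of 0.41. SPRR2F read 419 with ICG-001 and was under the limit with DMSO, at least 2.95-fold higher. Both higher genes, SPRR2D and SPRR2F, passed the limit with ICG-001 alone. Of the 33 colon differentiation genes only 7 were above the limit, among them CA2, a carbonic anhydrase, at 1574 and 659, and GCNT3, a mucin glycosyltransferase, at 199 and 371. Among 12 YAP-associated genes above the limit 2 were at least 1.5-fold higher and 1 lower, with a median of 0.26. The higher ones were the receptor gene AXL, at 442 and 1307, and tissue factor, F3, at 278 and 759.

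Host genes of small nucleolar RNAs were also listed after their values had been seen. They are spliced transcripts whose introns carry the small RNAs that guide modification of ribosomal RNA. Of 18 above the limit 10 were at least 1.5-fold higher and none lower, with a median of 0.71. SNHG15 read 1050 with DMSO and 3471 with ICG-001, 3.30-fold higher, and SNHG32 1872 and 5526. EPB41L4A-AS1 was read by a pair of rows with log2 ratios of 1.79 and 1.60. SNHG4 and SNHG9 were at -0.52 and -0.43. The small nucleolar RNAs themselves, 147 above the limit, had a median of -0.08, with 2 at least 1.5-fold higher and 5 lower. These were not matched to their own hosts. Rows of U1 spliceosomal RNA were likewise listed after their values had been seen. All 4 were at least 1.5-fold higher, from 2.21 to 3.26-fold, and these rows read near-identical copies.

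In other lists no difference past 1.5-fold was found among 11 histone acetyltransferases, 15 deacetylases and 24 replication-dependent histone genes above the limit, with medians of -0.11, -0.07 and 0.14. Among 24 interferon-stimulated genes ISG20 and IRF1 were the 2 past it, and the median was -0.09. Of 14 genes of NF-kB signalling LCN2 alone was past it. Among 12 genes of TGF-β signalling 1 was at least 1.5-fold higher and 1, ID3, lower. Tubulins, listed after their values had been seen, had 5 of 18 at least 1.5-fold lower and none higher, with a median of -0.31, or -0.13 with the mean of both DMSO columns as control.

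The same treatment at 96 h was compared next, in columns that share no array with those at 12 h. At 96 h 4.98% of genes were at least 1.5-fold higher with ICG-001 and 4.95% lower. Of the 821 genes higher at 12 h, 409 were also at least 1.5-fold higher at 96 h, 49.8% of the early list and 46.6% of the late one. Of the 708 lower genes 328 were lower at 96 h, 46.3% of the early list and 37.5% of the late one. The share increased with the size of the difference at 12 h, from 43.5% of genes 1.5 to 2-fold higher to 69.2% of those 2 to 3-fold and 87.5% of the 40 genes at least 3-fold higher. By sign alone 93.7% of the higher and 89.8% of the lower genes kept their direction. Of all genes above background at 96 h, 50.4% had a ratio above 0.

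**Figure D4:**
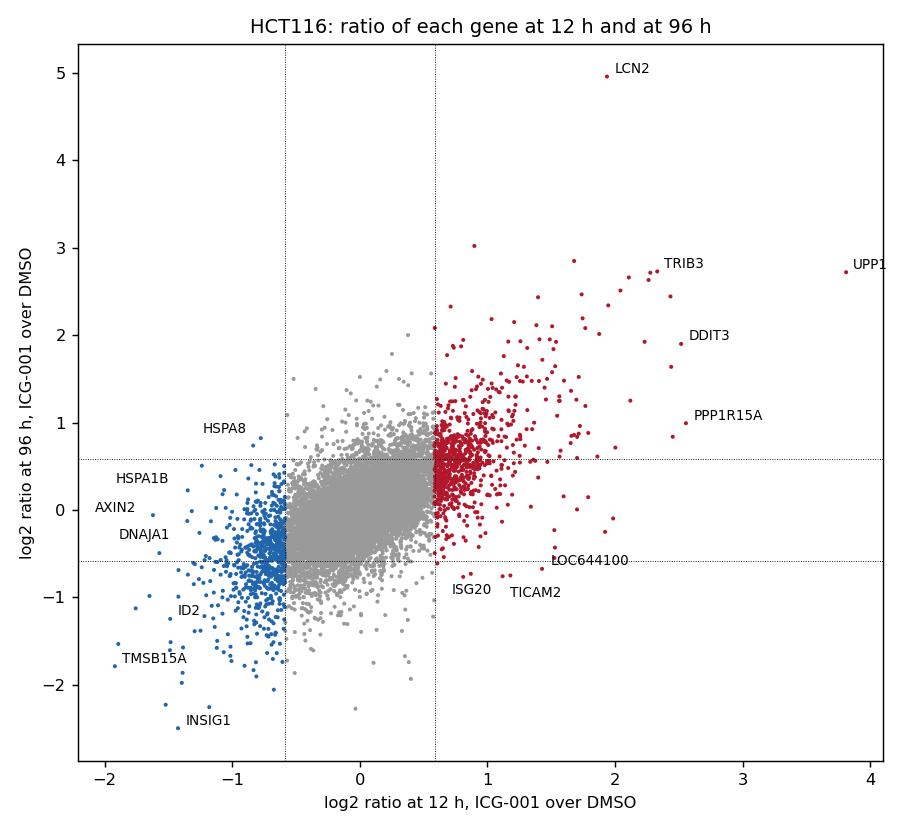
Log2 ratio of ICG-001 over DMSO in HCT116 at 12 h (horizontal) and at 96 h (vertical) for the genes above background at 12 h; dotted lines mark 1.5-fold, and red and blue points are at least 1.5-fold higher and lower at 12 h. LCN2 lies at 1.94 and 4.96, UPP1 at 3.81 and 2.72, AXIN2 at -1.62 and -0.06, and HSPA8 at -0.78 and 0.82.

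Some lists had larger medians at 96 h and others smaller ones. Early cholesterol synthesis had a median of -0.83 at 12 h and -1.24 at 96 h, with IDI1 at -1.18 and -2.26 and INSIG1 at -1.43 and -2.50. Metallothioneins went from 0.68 to 1.07, and LCN2 from 1.94 to 4.96. The ATF4 regulators stood at 1.11 and 0.97. Heat shock chaperones, at -0.69 and -0.10, and snoRNA host genes, at 0.71 and 0.18, had medians closer to 0 at the later time, when 4 of 17 host genes were still at least 1.5-fold higher and 2 lower. S phase genes were at -0.43 and 0.15. The feedback gene DKK1, at -0.03 after 12 h, was at -2.27 after 96 h.

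By a rule of at least 2-fold at 12 h and under 1.2-fold at 96 h, 29 named rows belonged to the early time alone. They included AXIN2, the chaperone genes DNAJA1 and HSPA1B, the replication genes GINS2 and MCM5, and MYB, a progenitor cell transcription factor, which read 441 with DMSO and 177 with ICG-001. Among the higher genes were SNHG1 and SNHG8, the mRNA decay factor gene ZFP36 at 874 and 2844, the arrestin-domain gene ARRDC4 at 152 and 574, and VGF at 1049 and 4153. For ZFP36, ARRDC4 and VGF the DMSO column itself was higher at 96 h than at 12 h. The log2 ratios were 1.38, 0.91 and 0.82. For GINS2 the DMSO column was lower at 96 h, at -1.67. It was also lower for MCM5, at 1483 after 12 h and 647 after 96 h, and for MYB, at 441 and 231. With ICG-001 MCM5 read 731 and 575 at these times, and MYB 177 and 229. Different controls therefore stand behind the ratios of these genes at the 2 times. AXIN2 read 643 with DMSO and 617 with ICG-001 at 96 h.

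In PANC1, a human pancreatic adenocarcinoma line, the same dose and time gave fewer differences, 2.13% of genes at least 1.5-fold higher and 0.329% lower. These columns were means of 2 arrays with DMSO and 3 with ICG-001. Of the 821 genes higher in HCT116, 233 were higher in PANC1, 28.4% of the HCT116 list and 62.0% of the PANC1 list. Of the 708 lower genes 26 were lower in PANC1, 3.67% of the HCT116 list and 44.8% of the PANC1 list. The ATF4 regulators had medians of 1.11 in HCT116 and 0.82 in PANC1, amino acid synthesis 0.42 and 0.45, and cytosolic synthetases 0.55 and 0.46. GDF15 was at 1.75 and 1.61. All 4 U1 rows were at least 1.5-fold higher in PANC1 too, with a median of 1.26. Early cholesterol synthesis was at -0.83 and -0.29, heat shock chaperones at -0.69 and -0.26, and hypoxia targets at -0.31 and 0.03. AXIN2 read 141 with DMSO and 136 with ICG-001 in PANC1, close to the limits of 136 and 134 there.

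C646, an inhibitor of the acetyltransferase activity of both CBP and p300, was applied to HCT116 at the same 10 µM for 12 h. Its ratios use the same DMSO column, so values are set side by side without a count of shared genes. With C646 2.50% of genes were at least 1.5-fold higher and 1.47% lower. The ATF4 regulators had a median of -0.06, with 1 of 20 at least 1.5-fold higher and 1 lower, and early cholesterol synthesis -0.03, with none of 11 past 1.5-fold. Heat shock chaperones were at 0.21 and S phase genes at 0.18. AXIN2 was at 0.11, DDIT3 at -0.12 and INSIG1 at 0.06. TCF7L2 and CTNNB1 were at -0.84 and -0.73 with C646, beside -1.14 and -0.61 with ICG-001, and ANKRD37 at -0.97 beside -1.52. GDF15 was at -1.07 with C646 and 1.75 with ICG-001.

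**Figure D5:**
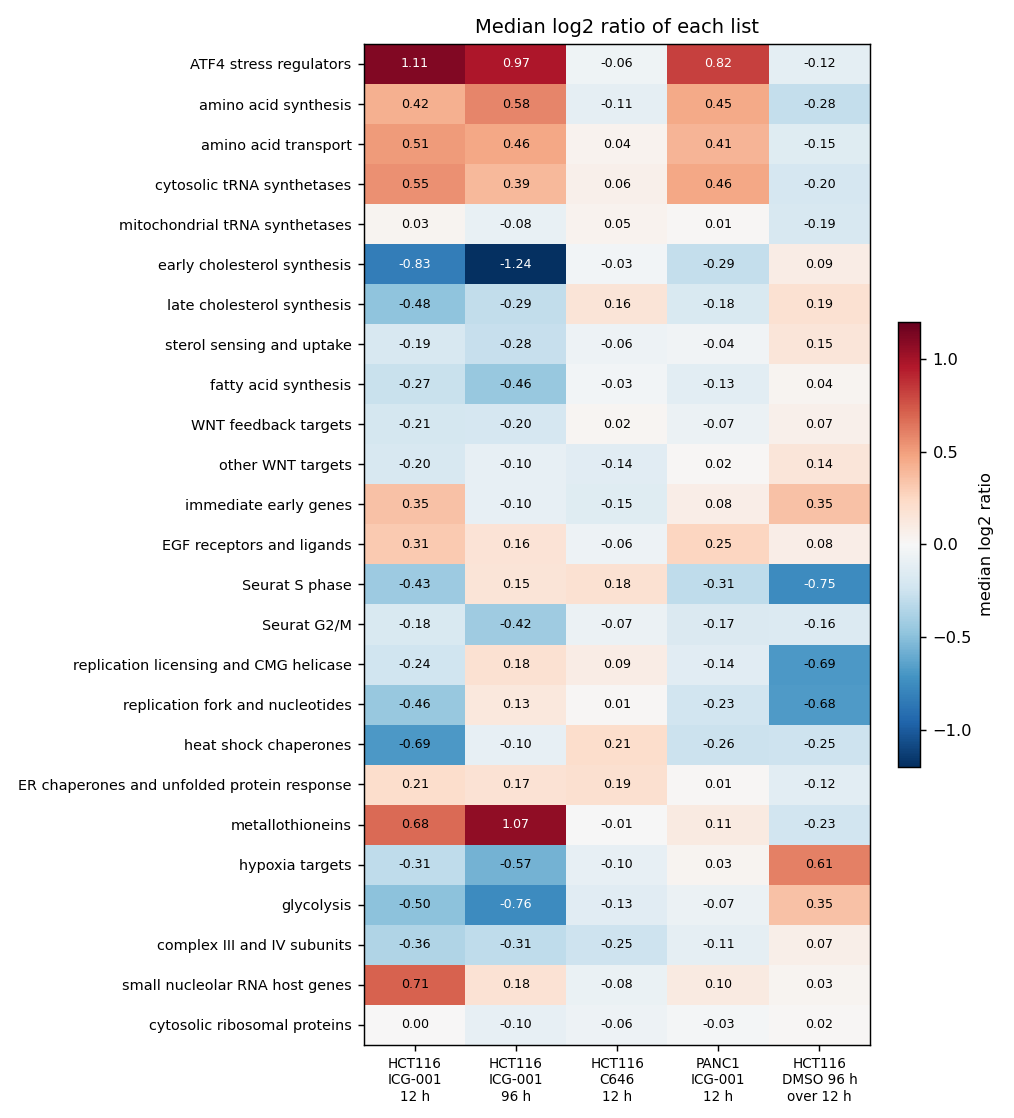
Median log2 ratio (colour and printed value) of each gene list in 5 comparisons: ICG-001 over DMSO in HCT116 at 12 h and 96 h, C646 over DMSO in HCT116 at 12 h, ICG-001 over DMSO in PANC1 at 12 h, and DMSO at 96 h over DMSO at 12 h in HCT116. The ATF4 regulators are at 1.11, 0.97, -0.06, 0.82 and -0.12 in this order, and S phase genes at -0.43, 0.15, 0.18, -0.31 and -0.75.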

How the data were processed

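RNA of HCT116 and PANC1 cells was read on Illumina BeadChips. The authors exported intensity values from GenomeStudio, averaged replicate arrays, applied quantile normalization and left background in. The deposited table holds 12 columns of such means, of 2 arrays each and of 3 for PANC1 with ICG-001 at 12 h, so no test was possible. Log2 ratios were taken between columns. The limit was the background peak (kernel density, bandwidth factor 0.05) plus 2.33 SD, and a difference was counted from 1.5-fold. Of the 17230 rows kept, 10569 matched a current RefSeq symbol (GRCh38.p14), 1937 an older one, 84 an older symbol of several genes and 1144 a gene identifier, and 3496 none. Genes were named by rule: the 15 largest and 15 smallest ratios among named rows that are not small RNAs, the 4 largest and 4 smallest of each list, CREBBP, EP300, CTNNB1 and TCF7L2, and up to 8 genes opposite at 12 h and 96 h. Others were named after their values were seen. Some genes that the rule takes are not reported here. The members and lists were chosen with earlier results of these data known. Alternatives changed the fold threshold, filter, background correction (normexp, offset 16), centring, normalization, rows per gene and control column. Scripts ran in Python 3.11.15 (numpy 2.4.6, pandas 2.3.3, scipy 1.17.1, matplotlib 3.10.9) and R 4.3.3 (limma 3.58.1) and were tested on simulated data.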

Additional observations from a re-analysis of the deposited data

Results flagged for a closer look

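In HCT116 7 named rows were at least 1.5-fold different with ICG-001 in opposite directions at 12 h and 96 h. Log2 ratios at 12 h and 96 h were 1.43 and -0.67 for LOC644100, matched by its identifier to ARL14EPL, and 1.18 and -0.75 for TICAM2, an adaptor of toll-like receptor signalling. They were 1.12 and -0.76 for ISG20, an interferon-induced exonuclease, 0.81 and -0.76 for C12orf24, now FAM216A, and 0.61 and -0.61 for DHDH, a dihydrodiol dehydrogenase. HSPA8 was at -0.78 and 0.82. LOC399988, matched to HSPA8P5, a pseudogene of HSPA8, was at -0.84 and 0.74, and the array may not separate these sequences. The DMSO columns behind these ratios also differed. As log2 of DMSO at 96 h over 12 h, TICAM2 was at 0.69, ISG20 at 0.50 and DHDH at 0.34. HSPA8 was at -0.67 and LOC399988 at -0.61 by that measure, and LOC644100 and C12orf24 at 0.05 and -0.015. Between cell lines RGS2, a brake on G protein signalling, was at -1.39 in HCT116 and 0.89 in PANC1 after 12 h. With 1 column a group, none of these differences between times or lines was tested.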

How the results depend on the processing

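Of the counts and the medians of the 51 lists with at least 7 genes above the limit, all lay within 1.5 times or 0.07 (the SD of rows under the limit) of the reported value when ratios were centred, when all 12 columns were quantile normalized together. So did the 48 list medians that could be recomputed with every row of a gene. A threshold of 1.2-fold gave 2713 genes higher and 2808 lower, and 2-fold gave 173 and 87. Normexp background correction with quantile normalization gave 1778 and 1885. After normexp the medians that moved by more were 1.33 for ATF4 stress regulators, 0.63 for amino acid transport, -1.18 for early cholesterol synthesis, -0.57 for late cholesterol synthesis, -0.39 for sterol sensing and uptake, -0.40 for fatty acid synthesis, -0.45 for WNT feedback targets and -0.31 for other WNT targets. Normexp also gave 0.45 for immediate early genes, 0.61 for EGF receptors and ligands, -0.57 for S phase, -0.39 for replication licensing and CMG helicase, -0.57 for replication fork and nucleotides, -0.25 for p53 targets, 0.30 for BCL2 family and 0.35 for ER chaperones and unfolded protein response. Normexp also gave -0.63 for hypoxia targets, -0.26 for interferon-stimulated genes, 0.19 for NF-kB chemokines and feedback, 0.61 for colon epithelial differentiation, -0.19 for histone acetyltransferases, -0.23 for histone deacetylases, -0.17 for TGF-beta ligands, SMADs and targets and 0.52 for YAP and targets. Normexp also gave 0.24 for epithelial line markers, 0.26 for replication-dependent histones, -0.21 for small nucleolar RNAs, 0.54 for keratins and -0.38 for tubulins. With no filter on dim genes they were 0.28 for amino acid synthesis, -0.071 for WNT feedback targets, -0.050 for other WNT targets, 0.094 for EGF receptors and ligands, -0.26 for cyclins, 0.60 for metallothioneins, -0.014 for NF-kB chemokines and feedback (sign turned) and 0.024 for colon epithelial differentiation. Unfiltered medians were also -0.27 for complex III and IV subunits, 0.0096 for replication-dependent histones, 0.44 for small nucleolar RNA host genes, 0.050 for keratins and -0.22 for tubulins. With the limit at 5 SD they were 0.44 for EGF receptors and ligands, -0.31 for replication licensing and CMG helicase, -0.52 for hypoxia targets, 0.57 for colon epithelial differentiation and 0.87 for small nucleolar RNA host genes. With both columns above the limit they were -0.30 for WNT feedback targets, 0.44 for EGF receptors and ligands, -0.31 for replication licensing and CMG helicase, 0.16 for E2F and pocket proteins, -0.52 for hypoxia targets, 0.57 for colon epithelial differentiation, 0.87 for small nucleolar RNA host genes and 0.27 for keratins. With the mean of both DMSO columns as control, added after the data were seen, they were 0.58 for amino acid synthesis, 0.61 for amino acid transport, -0.93 for early cholesterol synthesis, -0.36 for fatty acid synthesis, -0.11 for other WNT targets, 0.19 for immediate early genes, 0.083 for ERK feedback and 0.22 for EGF receptors and ligands. This control also gave -0.10 for S phase, -0.079 for G2/M, 0.051 for replication licensing and CMG helicase (sign turned), -0.067 for replication fork and nucleotides, -0.073 for cyclins, 0.87 for metallothioneins, -0.45 for heat shock chaperones and -0.65 for hypoxia targets. This control also gave -0.67 for glycolysis, -0.14 for autophagy and lysosome (sign turned), 0.025 for NF-kB chemokines and feedback, 0.18 for epithelial line markers, -0.098 for mitochondrial ribosomal proteins, -0.15 for complex I subunits, -0.098 for proteasome subunits and 0.058 for replication-dependent histones. This control also gave 0.58 for small nucleolar RNA host genes and -0.13 for tubulins. Shifts under this control come from the 96 h DMSO column that it averages in and from genes which that column adds to the filter. Why the DMSO columns differ was not tested, nor was the cause of the other shifts. Of the 41 genes recomputed one by one (the largest and smallest ratios, the WNT and CBP components and the genes opposite at 96 h), none changed sign under the alternatives run for them. No paired analysis was possible because each column is a mean of arrays and carries no replicate number. For the same reason leaving out each replicate could not be run. The compared columns rest on 2 arrays each, which limits the precision, and genes near background have compressed ratios.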
